A study of Mus musculus with 8 samples.

Results

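The genes described here encode the enzymes of sterol and fatty acid synthesis and the proteins that control them, and they were followed across 8 RNA sequencing libraries of NMuMG cells. NMuMG is a line of epithelial cells from mouse mammary gland. The set is a list of 32 named genes with a mean normalised count of at least 10 over the 8 libraries. All 32 met that minimum, out of 12498 genes tested and 18102 genes in the deposited table. The lowest mean was 87.8, for Acss2, and no listed gene fell below the minimum. Levels are normalised counts, which are reads divided by a size factor per library.

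The libraries formed 4 groups of 2. WT cells, and cells whose labels name an RREB1 knockout (KO), were each given SB505124 (2.5 µM, 6 h) or TGFβ (100 pM, 1.5 h). SB505124 inhibits the kinase of the TGFβ type I receptor. All cells had been starved of serum for 6 h, so no group was untreated or fully fed. The treatments lasted for different times, so agent and duration cannot be told apart. All KO columns carry the code KO1, which is taken to mean 1 clone, so genotype and clone cannot be told apart either. The labels do not say whether replicates were separate cultures, so a p-value here speaks only for the spread between these libraries, which may be technical.

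As background, cells build cholesterol from acetyl-CoA through mevalonate, squalene and lanosterol, and they build fatty acids from acetyl-CoA through malonyl-CoA. SREBP transcription factors drive the genes of both pathways. When membranes hold little sterol, the escort protein SCAP carries the SREBP precursors from the endoplasmic reticulum to the Golgi, where they are cut and released to the nucleus. When sterol is plentiful, INSIG proteins hold SCAP back. The mammary epithelium uses the same pathways to make milk fat.

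The libraries held 25144204 to 32143113 reads. The labels were checked on 2 kinds of gene. Rreb1 had normalised counts of 1055 and 1033 in WT and 1327 and 1343 in KO-labelled libraries under SB505124. Under TGFβ it had 1959 and 1769 in WT and 2481 and 2241 in KO-labelled libraries. Under SB505124 the KO-labelled libraries thus exceeded WT, with a log2 difference of 0.35 ± 0.08 (model SE, as for all such values below; limma adjusted p = 0.00153). Such counts do not show a small edit in the coding sequence. The TGFβ target Smad7 was at 601 to 709 in the 4 SB505124 libraries and at 4278 to 5099 in the 4 TGFβ libraries. The 2 WT TGFβ libraries differed most from each other, with a median absolute log2 difference of 0.141 over genes, against 0.0956 to 0.119 in the other pairs.

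The epithelial keratin genes Krt8, Krt18 and Krt19 were high in all 8 libraries. The mammary epithelial sum, over 6 of 7 markers, was 172761 and 181844 in WT under SB505124 and 233166 and 234429 under TGFβ. In KO-labelled libraries it was 185514 and 199074, then 269075 and 272011. Of the 4 tested markers, 2 rose and 1 fell with TGFβ in WT, and 2 rose in KO (limma adjusted p under 0.05). Between genotypes 2 were higher in KO under SB505124 and 3 under TGFβ. The epithelial markers Epcam and Cldn7 were near 0, and Epcam was at 0 in all 4 KO-labelled libraries. Of the adipocyte markers, Adipoq, Retn and Cfd stayed at or below 3.08 in every library, and the sum over the 5 of 7 in the table was 9.63 to 23.3. Only 1 adipocyte marker had enough counts to be tested. In KO-labelled cells it was lower under TGFβ than under SB505124 (log2 -1.36), and under TGFβ it was lower in KO than in WT (-1.48). The fibroblast sum, over 6 of 6 markers, was 163 and 164 in WT under SB505124, 513 and 669 in WT under TGFβ, 46.5 and 61.3 in KO under SB505124, and 383 and 402 in KO under TGFβ. In that list Col1a1 and Pdgfra carried the higher TGFβ sums, while Lum and Pdgfrb were at or below 2.05 throughout. The hepatocyte sum, over 3 of 4 markers, was 49.7 to 70.9 in the WT libraries and 117 to 153 in the KO-labelled libraries, with no overlap. Of those 3 markers, 2 were higher and 1 was lower in KO under each treatment (limma adjusted p under 0.05). The basal sum, over 5 of 5 markers, was 17.2 and 19.0 in WT under SB505124 and 50.3 and 57.9 under TGFβ, and 66.1 to 87.2 in the KO-labelled libraries. Only 2 basal markers had enough counts to be tested, and 1 was higher and 1 lower in KO under each treatment. The endothelial sum, over 4 of 4 markers, was 14.2 to 40.0 in WT and 3.72 to 13.5 in KO-labelled libraries, and the leukocyte sum, over 6 of 6, was 475 to 526 and 572 to 687. The part of these markers in the results below was not tested. In bulk libraries, fewer cells of a type and less RNA per cell cannot be told apart.

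In every library, the 32 genes together took under 1 read in 100. Their share was 0.504% and 0.490% of the reads in WT cells under SB505124 and 0.427% and 0.388% under TGFβ. It was 0.685% and 0.686% in KO-labelled cells under SB505124 and 0.626% and 0.594% under TGFβ. The KO-labelled libraries were thus above all WT libraries, and within each genotype the TGFβ libraries were below the SB505124 libraries. Without Scd1 the shares were 0.387% to 0.503% in WT and 0.567% to 0.654% in KO-labelled libraries.

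Per 1000 bases of the longest principal transcript, Scd2 had the highest group mean in all 4 groups, at 4520 to 6456 normalised counts per kb. Fdps came second in each group, at 3123 to 4406. Ebp and Fads1 followed in 3 groups, in changing order, while in KO-labelled cells under SB505124 Hmgcs1 (3072 per kb) stood above Fads1 (2858) and Ebp (2779). Acss2 was lowest in all 4 groups, at 21.7 to 35.4 per kb. In WT cells Scd1 came next, at 82.6 per kb under SB505124 and 61.1 under TGFβ, below Acaca and Idi1. In KO-labelled cells Scd1 was at 1873 and 1654 per kb, above both.

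**Figure D1:**
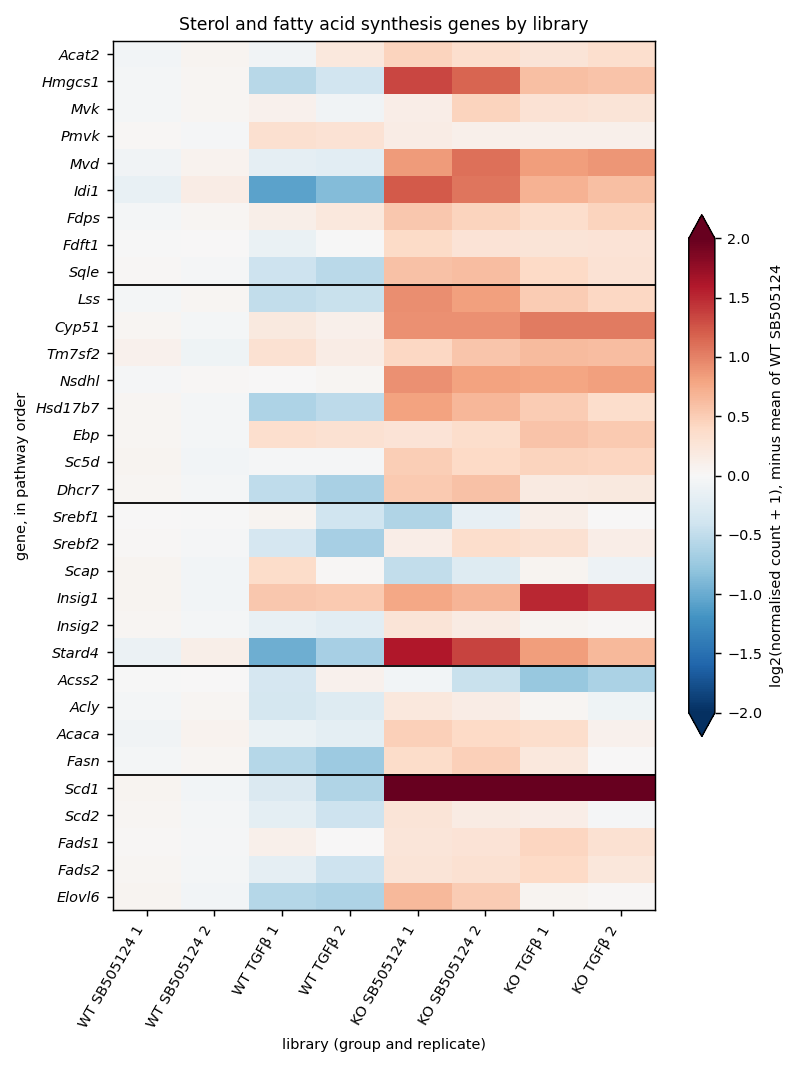
Colour gives log2(normalised count + 1) of each gene in each of the 8 libraries (columns) minus the mean of the 2 WT SB505124 libraries, with genes in pathway order and lines between the 5 roles. Scd1 lies beyond the colour scale in the 4 KO-labelled libraries, where its normalised counts were 7674 to 9352 against 263 to 415 in WT.

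The first question was which of these genes differ between TGFβ and SB505124. In WT cells 14 of 32 genes were lower under TGFβ and 3 were higher (limma adjusted p under 0.05). Over all 12498 tested genes, 23.2% were lower and 20.2% were higher. The median log2 fold change of the 32 genes was -0.18, against -0.01 over all tested genes. The genes that fell were Hmgcs1, Idi1, Sqle, Lss, Hsd17b7, Dhcr7, Srebf2, Stard4, Acly, Fasn, Scd1, Scd2, Fads2 and Elovl6. Those that rose were Insig1, Ebp and Pmvk. The 14 genes that fell lay in each of the 5 roles, and the 15 genes that neither fell nor rose did not pass the threshold.

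In KO-labelled cells 9 genes were lower and 4 were higher, against 15.8% and 15.1% of all tested genes. The median was -0.10, against -0.02 over all tested genes. The 9 that fell were Hmgcs1, Idi1, Sqle, Lss, Hsd17b7, Dhcr7, Stard4, Fasn and Elovl6, and all 9 were among the 14 that fell in WT. Insig1 and Ebp rose in both genotypes, Srebf1 and Scap rose in KO-labelled cells and did not pass in WT, and no gene was called in opposite directions. The responses were measured in separate libraries. Over the 32 genes they had a Pearson r of 0.783 and a Spearman rho of 0.791, with the same sign in 25, as a description across genes that are not independent replicates. The count of 13 was 8 without KO SB505124 replicate 1 and 7 without a variance trend. A correction for GC content and length gave 14 lower and 3 higher.

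**Figure D2:**
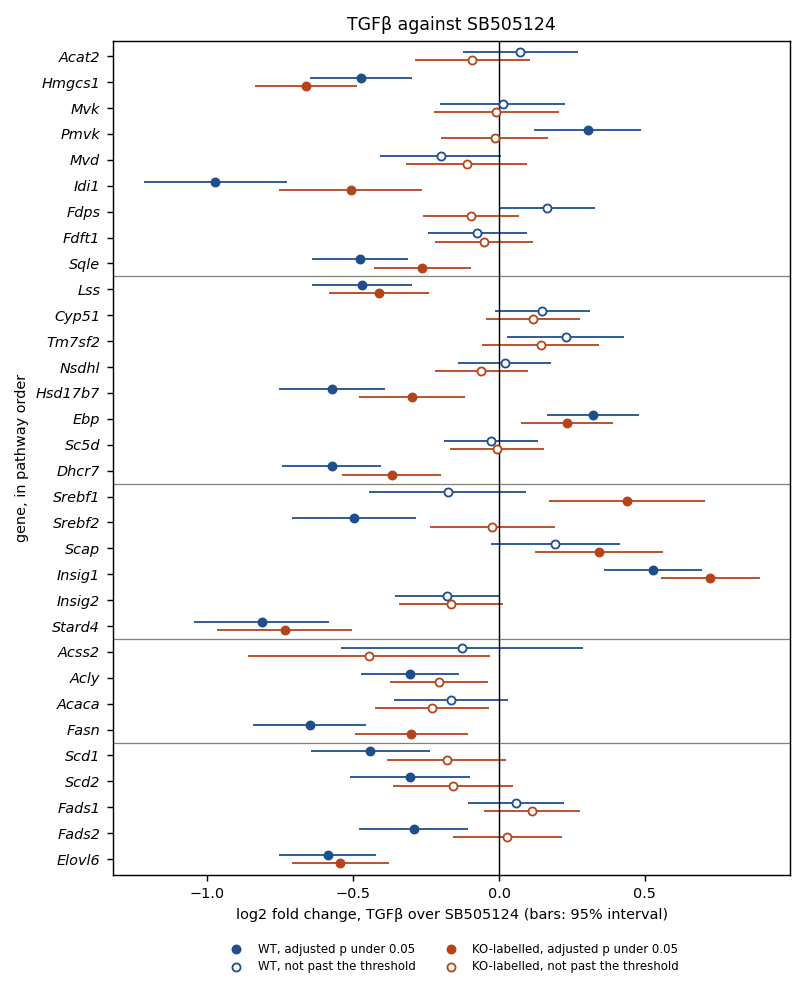
Points give the log2 fold change of each gene, TGFβ over SB505124, in WT (blue) and KO-labelled (orange) cells, with 95% intervals of the model as bars and filled points for adjusted p under 0.05. Idi1 (-0.97 in WT, -0.51 in KO), Stard4 (-0.81, -0.73) and Hmgcs1 (-0.47, -0.66) lie left of 0 in both, and Insig1 (0.53, 0.72) lies right of 0 in both.

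The second question was whether the response itself differs between the genotypes, tested as an interaction. None of the 32 genes passed (limma), where 2.25% of all tested genes responded more positively in KO-labelled cells and 0.568% more negatively. edgeR and DESeq2 on the recovered reads also called 0 of 32. At an unadjusted limma p under 0.05, 6 of 32 genes had a higher response in KO and 2 a lower one. Over all 12498 tested genes, those counts were 1300 and 802. The largest difference was that of Srebf1, at 0.62 ± 0.18 (95% interval 0.24 to 0.99, limma adjusted p = 0.0763), followed by Srebf2 at 0.47 ± 0.14 (0.17 to 0.78, 0.0878) and Idi1 at 0.47 ± 0.17 (0.12 to 0.81, 0.149). Fasn had 0.35 ± 0.13 (0.07 to 0.62) and Elovl6 0.04 ± 0.11 (-0.19 to 0.28). The intervals are wide beside most responses, so the responses are not shown to be alike. Without WT TGFβ replicate 1, the differences of 5 genes passed, among them Srebf1 (0.84, adjusted p = 0.000561), Srebf2 (0.64, 0.00218) and Fasn (0.43, 0.0416). Scd1 (0.42, 0.0366) and Fads2 (0.44, 0.0246) passed there as well. Without KO SB505124 replicate 2, Srebf1 (0.83, 0.00116) and Srebf2 (0.58, 0.0248) passed, and with the GC and length correction Srebf1 (0.43, 0.0422) and Idi1 (0.50, 0.0422).

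The third question was how the KO-labelled cells differ from WT cells. Under SB505124, 26 of 32 genes were higher in KO-labelled cells and 2 were lower. Over all tested genes, 29.2% were higher and 27.7% were lower. The median log2 difference was 0.44, against 0.01 over all tested genes. Under TGFβ, 28 genes were higher and 1 was lower, against 32.7% and 30.2% of all tested genes, with a median of 0.53. All 26 genes that were higher under SB505124 were also higher under TGFβ, where Acly and Scd2 joined them. The lower genes were Srebf1 and Scap under SB505124 and Acss2 under TGFβ. All 8 enzymes from lanosterol synthase to cholesterol were higher under both treatments, as were 8 of the 9 genes of the mevalonate and squalene steps. Of the 14 genes that fell with TGFβ in WT, 12 were higher in KO-labelled cells under SB505124, beside 26 of all 32 genes. The same overlap was not counted over all tested genes. Those contrasts share the WT SB505124 libraries, so no link is drawn from the overlap.

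The KO-labelled libraries also differed from WT by chromosome. Genes on chromosome 4 had a median log2 difference of -0.69 and those on chromosome 14 of -0.62 under SB505124. Fdft1 is the only one of the 32 on chromosome 14, and none lies on chromosome 4. With each chromosome's median subtracted, an alternative added after seeing the data, 25 genes were higher and 2 lower under SB505124, and 24 and 3 under TGFβ. Fdft1 then stood at 0.94 in place of 0.32 under SB505124. Ebp, on the X chromosome (median 0.14), stood at 0.18 in place of 0.32 and no longer passed (limma adjusted p = 0.0521).

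**Figure D3:**
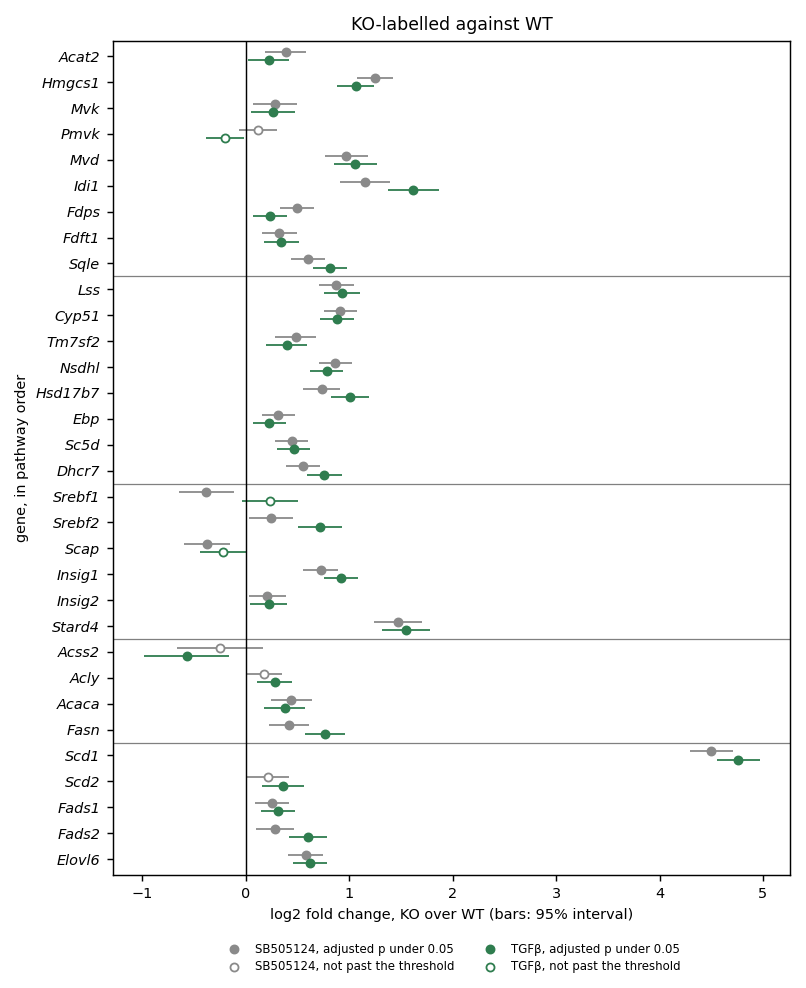
Points give the log2 fold change of each gene, KO-labelled over WT cells, under SB505124 (grey) and TGFβ (green), with 95% intervals of the model as bars and filled points for adjusted p under 0.05. Most points lie right of 0, Scd1 stands apart at 4.50 and 4.76, and Srebf1, Scap and Acss2 lie left of 0 under SB505124.

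In the mevalonate and squalene steps, Hmgcs1, Idi1 and Sqle fell with TGFβ in both genotypes. Hmgcs1 encodes the synthase that joins acetyl-CoA to acetoacetyl-CoA at the start of the mevalonate route. It lies on chromosome 13 (mm10, 119690379 to 119708260, plus strand). Its normalised counts were 4360 and 4559 in WT under SB505124 and 3030 and 3406 under TGFβ. In KO-labelled libraries they were 11257 and 10025 under SB505124 and 6789 and 6633 under TGFβ. The groups did not overlap in any of these comparisons, and KO-labelled cells under TGFβ were still above WT cells under SB505124. The fall was 1.39-fold in WT (log2 -0.47 ± 0.08, limma adjusted p = 0.000172) and 1.58-fold in KO (-0.66 ± 0.08, 4.54e-06). The KO-labelled cells were 2.38-fold above WT under SB505124 (1.25 ± 0.08, limma adjusted p = 2.89e-10) and 2.09-fold under TGFβ.

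Idi1 encodes the isomerase that makes dimethylallyl pyrophosphate. It was at 403 and 495 in WT under SB505124 and at 212 and 243 under TGFβ, and at 1049 and 944, then 723 and 677, in KO-labelled libraries. These groups were likewise apart. Its fall in WT, 1.96-fold (log2 -0.97 ± 0.12, limma adjusted p = 2.6e-06), was the largest among the 32 genes, and in KO it fell 1.42-fold (-0.51 ± 0.12, 0.00254). Under TGFβ the KO-labelled cells were 3.07-fold above WT. Sqle, the squalene epoxidase gene, had 5046 and 4886 in WT under SB505124 and 3743 and 3403 under TGFβ. In KO-labelled libraries it had 7483 and 7600, then 6544 and 6035. Its log2 fold changes with TGFβ were -0.48 ± 0.08 in WT and -0.26 ± 0.08 in KO (limma adjusted p = 0.0158). The Sqle call in KO was lost without either KO SB505124 library (adjusted p = 0.0615 and 0.061) or without KO TGFβ replicate 2 (0.182).

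No other gene of these steps was called lower under TGFβ with limma in either genotype. With the GC and length correction Mvd was lower in WT (-0.44 in place of -0.20, adjusted p = 0.000119) and in KO (-0.40 in place of -0.11, 0.000435), and Mvk (-0.22, 0.0312) and Pmvk (-0.28, 0.0107) were lower in KO. Pmvk, the phosphomevalonate kinase gene, went from 761 and 734 to 934 and 912 in WT (0.30 ± 0.09, limma adjusted p = 0.00892). In KO-labelled libraries Pmvk was at 825 and 805 under SB505124 and at 806 in both TGFβ libraries. The WT call for Pmvk was lost without WT SB505124 replicate 2 (adjusted p = 0.076), and its value turned to -0.03 (0.816) with the GC and length correction. Between genotypes Pmvk did not pass with limma, at 0.12 ± 0.09 under SB505124 (adjusted p = 0.238) and -0.20 ± 0.09 under TGFβ (0.0592). Under TGFβ it was called lower in KO in 5 of 20 alternatives, among them edgeR (-0.22, adjusted p = 0.0293) and chromosome medians subtracted (-0.26, 0.0142). Under SB505124 it was called higher with the GC and length correction (0.31, 0.00267).

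Mvd, the decarboxylase gene, was at 602 and 657 in WT and at 1131 and 1347 in KO-labelled libraries under SB505124, 1.96-fold higher (0.97 ± 0.10, limma adjusted p = 1.03e-07). Both KO libraries lay above both WT libraries. Fdps, which makes farnesyl pyrophosphate, was at 4194 and 4438 in WT and 6298 and 5881 in KO under SB505124 (0.50 ± 0.08). The squalene synthase gene Fdft1 was 1.25-fold higher in KO under SB505124. Fdft1 shares 18.3% of its merged exon bases with Ctsb on the opposite strand, and the library kit does not mark the strand. Fdps shares 26.7% of its merged exon bases with Gm43738 on the same strand, so its counts are uncertain too. In all, 12 of the 32 genes share exon bases with another gene. Among them are Scap (13.2%), Hmgcs1 (12.1%), Tm7sf2 (12.1%) and Idi1 (9.2%), whose counts carry the same limit. Acat2, a thiolase gene, and Mvk, the mevalonate kinase gene, were 1.31-fold and 1.22-fold higher in KO under SB505124. Under TGFβ the call for Fdps was lost without WT TGFβ replicate 1 (adjusted p = 0.0819) or KO TGFβ replicate 2 (0.116). The Mvk call under SB505124 was lost without either WT SB505124 library or KO SB505124 replicate 2 (highest 0.353), and under TGFβ without WT TGFβ replicate 2 or either KO TGFβ library (highest 0.171). The Acat2 call under TGFβ was lost in 10 of 20 alternatives, with edgeR and DESeq2 among them (highest 0.48, without WT TGFβ replicate 1).

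In the steps from lanosterol synthase to cholesterol, the enzymes split in their TGFβ response. Lss, the lanosterol synthase gene, had 1362 and 1431 in WT under SB505124 and 992 and 1023 under TGFβ. Its counts in KO-labelled libraries were 2656 and 2475, then 1995 and 1858. Lss fell by 0.47 ± 0.08 on the log2 scale in WT (limma adjusted p = 0.000153) and by 0.41 ± 0.08 in KO. The 17-beta-dehydrogenase gene Hsd17b7, which acts in the removal of the 4-methyl groups, went from 1432 and 1358 to 906 and 969 in WT. In KO-labelled libraries Hsd17b7 went from 2426 and 2220 to 1992 and 1786. Dhcr7, the reductase of the last step of one branch, went from 1972 and 1862 to 1352 and 1225 in WT and from 2768 and 2861 to 2175 and 2184 in KO. All 3 were lower under TGFβ in both genotypes, with no overlap between treatments, and all 3 were higher in KO-labelled cells. The Hsd17b7 call in KO was lost without KO SB505124 replicate 1 (adjusted p = 0.147) or KO TGFβ replicate 2 (0.183).

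Cyp51, the lanosterol demethylase gene, did not pass the limma test of either response. It had 5960 and 5602 in WT under SB505124 and 6649 and 6168 under TGFβ (0.15 ± 0.08, limma adjusted p = 0.129). The KO-labelled libraries had 10941 and 10865, then 11833 and 11812, so the genotypes were 1.89-fold apart under SB505124 and 1.85-fold under TGFβ. With the GC and length correction Cyp51 was called higher under TGFβ in WT (0.24, adjusted p = 0.00572) and in KO (0.17, 0.0427). Ebp, the sterol isomerase gene, rose with TGFβ, from 4015 and 3769 to 4900 and 4819 in WT (0.32 ± 0.08, limma adjusted p = 0.00213). In KO-labelled libraries Ebp went from 4714 and 4975 to 5779 and 5610 (0.23 ± 0.08, 0.0244), and this call was lost without KO SB505124 replicate 1 (0.199) or either KO TGFβ library (0.13 and 0.0845). The Ebp call between genotypes under TGFβ (0.23 ± 0.08) was lost without KO TGFβ replicate 1 (adjusted p = 0.0889) and with chromosome medians subtracted, where the value was 0.08 (0.395).

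Nsdhl, Sc5d and Tm7sf2, which encode a sterol dehydrogenase, a desaturase and a reductase, did not pass the limma test of either response. Tm7sf2 went from 835 and 737 to 973 and 869 in WT (0.23 ± 0.10, limma adjusted p = 0.0617), and it passed with edgeR (0.25, adjusted p = 0.0426) and with limma without WT TGFβ replicate 2 (0.31, 0.0278). Nsdhl was at 2100 to 2173 in the 4 WT libraries and at 3664 to 4021 in the 4 KO-labelled libraries, a 1.82-fold difference under SB505124 (0.86 ± 0.08, limma adjusted p = 1.54e-08). Sc5d was 1.36-fold and Tm7sf2 1.40-fold higher in KO under SB505124. The summed counts of the 8 genes were 19411 to 20458 in the WT libraries and 31716 to 32220 in the KO-labelled libraries. Within each genotype the sums of the 2 treatments overlapped, while 3 of the 8 genes fell and 1 rose.

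Among the genes of sterol sensing and transport, Insig1 and Stard4 moved in opposite directions with TGFβ. Insig1 encodes one of the proteins that hold SCAP in the endoplasmic reticulum, and it is itself a known SREBP target. Its counts were 1508 and 1392 in WT under SB505124 and 2101 and 2076 under TGFβ. In KO-labelled libraries they were 2467 and 2325, then 4116 and 3806. Insig1 rose 1.44-fold in WT (0.53 ± 0.08, limma adjusted p = 3.96e-05) and 1.65-fold in KO (0.72 ± 0.08, 9.37e-07). It was 1.65-fold higher in KO-labelled cells under SB505124 and 1.90-fold under TGFβ.

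Stard4, a soluble carrier of sterol on chromosome 18, had 1608 and 1875 in WT under SB505124 and 886 and 1100 under TGFβ. In KO-labelled libraries it had 5256 and 4433, then 3104 and 2709. All 4 KO-labelled libraries were above all WT libraries. Stard4 fell 1.76-fold in WT (-0.81 ± 0.11, limma adjusted p = 1.11e-05) and 1.66-fold in KO (-0.73 ± 0.11, 3.99e-05). It was 2.78-fold higher in KO-labelled cells under SB505124 (1.47 ± 0.11, limma adjusted p = 1.63e-09), the largest difference after Scd1. Chromosome 18 genes had a median difference of 0.25 there, and with it subtracted Stard4 stood at 1.22.

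**Figure D4:**
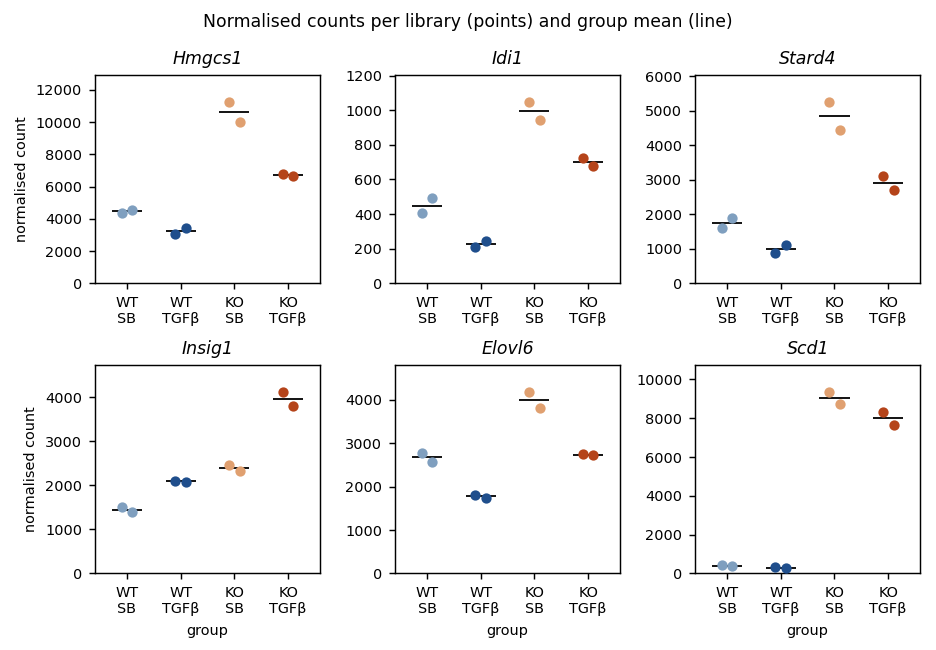
Each panel shows the normalised count of 1 gene (linear axis from 0) in the 2 libraries of each group as points and the group mean as a line. Hmgcs1, Idi1, Stard4 and Elovl6 are lower under TGFβ in both genotypes, Insig1 is higher under TGFβ in both, and Scd1 is at 263 to 415 in WT and 7674 to 9352 in KO-labelled libraries.

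The transcription factor genes and their escort varied between replicates. Srebf2, which encodes the SREBP best known for sterol genes, had 9384 and 9135 in WT under SB505124 and 7343 and 5858 under TGFβ. Its KO-labelled libraries held 10184 and 11786, then 11415 and 10184. Srebf2 fell in WT (-0.50 ± 0.10, limma adjusted p = 0.000682) and the groups overlapped in KO (-0.02 ± 0.10, 0.892). Srebf1, which encodes the SREBPs best known for fatty acid genes, had 4535 and 4464, then 4650 and 3407, in WT. The counts in KO-labelled libraries were 2972 and 4027, then 4885 and 4502. Srebf1 thus passed the test in KO (0.44 ± 0.13, limma adjusted p = 0.0134) and not in WT (-0.18 ± 0.13, 0.28). Scap had 3775 and 3521, then 4705 and 3689, in WT, and 2603 and 3052, then 3774 and 3387, in KO. It rose in KO (0.34 ± 0.10, limma adjusted p = 0.0179).

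For Srebf1, Srebf2 and Scap alike, replicate 2 was below replicate 1 in WT under TGFβ, by 0.45, 0.33 and 0.35 on the log2 scale. Replicate 2 was above replicate 1 in KO under SB505124, by 0.44, 0.21 and 0.23. Without KO SB505124 replicate 1 the KO response of Srebf1 was 0.22 (limma adjusted p = 0.247) and that of Scap 0.23 (0.197), and without KO TGFβ replicate 1 they were 0.38 (0.0983) and 0.26 (0.156). The Srebf1 call was also lost with DESeq2 (0.151). With the GC and length correction the KO responses of Srebf1 and Scap were 0.17 and 0.06, and neither passed, while Srebf1 passed as lower in WT (-0.26, limma adjusted p = 0.0179) and Srebf2 as lower in KO (-0.26, 0.00335). In WT, Srebf1 also passed as lower without WT TGFβ replicate 1 (-0.40, limma adjusted p = 0.00682), and Scap passed as higher without WT TGFβ replicate 2 (0.37, 0.00499). Between genotypes under SB505124, Srebf1 and Scap were lower in KO, by 0.38 ± 0.13 and 0.37 ± 0.10. Those calls were lost without KO SB505124 replicate 1 (-0.16 and -0.26, adjusted p = 0.299 and 0.0714). They were also lost without WT SB505124 replicate 1 (0.0896 and 0.0692), for Srebf1 without WT SB505124 replicate 2 (0.0701), and with the GC and length correction. Srebf2 was 1.64-fold higher in KO under TGFβ (limma adjusted p = 6.39e-06). Under SB505124 its difference of 0.24 (0.0493) was lost in 11 of 20 alternatives, among them the removal of any of 5 libraries (highest 0.336, without KO SB505124 replicate 2). Insig2, the second INSIG gene, was 1.16-fold higher in KO under SB505124, a call lost in 10 of 20 alternatives (highest 0.325, with chromosome medians subtracted; 0.248 without KO SB505124 replicate 1), and 1.17-fold under TGFβ, lost in 6 of 20 (0.305 with chromosome medians subtracted; 0.131 without KO TGFβ replicate 1).

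In acetyl-CoA supply and fatty acid synthesis, Fasn and Acly fell with TGFβ in WT. Fasn encodes the fatty acid synthase and lies on chromosome 11 (mm10, 120805846 to 120824547, minus strand). Its counts were 17369 and 18330 in WT under SB505124 and 12046 and 10732 under TGFβ. In KO-labelled libraries they were 22899 and 24740, then 20711 and 18005. Fasn fell 1.57-fold in WT (-0.65 ± 0.09, limma adjusted p = 1.83e-05) and 1.23-fold in KO (-0.30 ± 0.09, 0.018). The KO call was lost without KO SB505124 replicate 2 (adjusted p = 0.116) or KO TGFβ replicate 2 (0.249). Fasn was 1.33-fold higher in KO-labelled cells under SB505124 and 1.70-fold under TGFβ.

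Acly, which cleaves citrate to acetyl-CoA, had 8336 and 8839, then 6731 and 7159, in WT. In KO-labelled libraries it had 9975 and 9494, then 8844 and 8058. The treatments did not overlap in either genotype, and the fold changes were -0.31 ± 0.08 in WT (limma adjusted p = 0.00481) and -0.21 ± 0.08 in KO (0.0601). The KO value passed in 4 of 19 alternatives, among them DESeq2 (adjusted p = 0.0436) and the GC and length correction (-0.28, 0.00223). The WT call for Acly was lost without WT SB505124 replicate 2 (0.0692). Acaca, the acetyl-CoA carboxylase gene, had 1302 and 1426, then 1237 and 1192, in WT and 1903 and 1803, then 1732 and 1439, in KO. It was 1.36-fold higher in KO under SB505124 and 1.30-fold under TGFβ (0.38 ± 0.09, limma adjusted p = 0.00173). The difference under TGFβ turned to -0.03 (0.767) with the GC and length correction and was lost without KO TGFβ replicate 1 (0.0665). Acss2, which makes acetyl-CoA from acetate, had 60.7 to 110 normalised counts in the 8 libraries. It was lower in KO under TGFβ (-0.57 ± 0.20, limma adjusted p = 0.0173), a call lost without WT TGFβ replicate 2 (0.187) or KO TGFβ replicate 1 (0.0923). Acly was 1.22-fold higher in KO under TGFβ, a call lost without KO TGFβ replicate 1 (0.0856).

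Of the desaturases and the elongase, Scd1 showed the largest difference between genotypes of all 32 genes. Scd1 encodes a stearoyl-CoA desaturase, which makes monounsaturated fatty acids, and lies on chromosome 19 (mm10, 44394455 to 44407879, minus strand). Its counts were 415 and 384 in WT under SB505124 and 327 and 263 under TGFβ. In KO-labelled libraries they were 9352 and 8751, then 8309 and 7674. Scd1 was 22.6-fold higher in KO-labelled cells under SB505124 (4.50 ± 0.10, limma adjusted p = 3.45e-17) and 27.1-fold under TGFβ (4.76 ± 0.10, 1.81e-17). It fell with TGFβ in WT (-0.44 ± 0.10, limma adjusted p = 0.00131), and its value in KO was -0.18 ± 0.10 (0.175).

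Scd2, the neighbouring desaturase gene, was far closer between the genotypes. It had 31218 and 29558, then 26542 and 22774, in WT and 36429 and 34010, then 33215 and 29956, in KO. Scd2 was 1.28-fold higher in KO under TGFβ (0.36 ± 0.10, limma adjusted p = 0.00357). Under SB505124 its difference of 0.21 ± 0.10 did not pass with limma (adjusted p = 0.0708), but it passed in 6 of 20 alternatives, among them DESeq2 (0.038) and the replicate block (0.0229). The call under TGFβ was lost without KO TGFβ replicate 1 (0.0598) and with the GC and length correction. Its fall in WT (-0.31 ± 0.10, limma adjusted p = 0.0168) was lost without either WT SB505124 library or WT TGFβ replicate 2 (highest 0.155). Another gene of this family, Scd3, was chosen after its values were seen. It had 80.0 to 93.7 normalised counts in the WT libraries and 1.03 to 7.70 in the KO-labelled libraries, the opposite direction to Scd1. The genes are paralogs, so reads that fit more than 1 of them are uncertain, and how they were counted is not given in the sources used here.

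Elovl6, which elongates palmitate to stearate, had 2776 and 2566, then 1806 and 1745, in WT. The KO-labelled libraries held 4177 and 3812, then 2758 and 2715. KO-labelled cells under TGFβ were thus near WT cells under SB505124. Elovl6 fell 1.50-fold in WT (-0.59 ± 0.08, limma adjusted p = 1.04e-05) and 1.46-fold in KO (-0.54 ± 0.08, 2.84e-05). The genes of polyunsaturated fatty acid synthesis, Fads1 and Fads2, differed less. Fads1 had 8155 to 8849 normalised counts in the WT libraries and 9742 to 11153 in the KO-labelled libraries, 1.20-fold higher under SB505124. Fads2 had 6158 and 5822, then 5297 and 4505, in WT (-0.29 ± 0.09, limma adjusted p = 0.0121). It had 7191 and 7373, then 7912 and 6971, in KO (0.03 ± 0.09, 0.845). Fads2 was 1.52-fold higher in KO under TGFβ. The Fads2 fall in WT was lost without WT SB505124 replicate 1 (0.117) or WT TGFβ replicate 2 (0.143). Under SB505124 its genotype call was lost without WT SB505124 replicate 2 (0.102), and that of Fads1 without the same library (0.0723) or KO SB505124 replicate 2 (0.0586).

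The stretches of DNA before the start of 5 of these genes are shown because the genes moved together or apart with TGFβ. Hmgcs1, Lss, Fasn and Elovl6 fell in both genotypes and Insig1 rose in both. The sequences are from RefSeq (GRCm38.p6), 150 bases each, 5′ to 3′ on the strand of the gene, ending before the first annotated base of the gene. Capitals mark matches on either strand to 3 motifs: TCACNCCAC, the core of a sterol element bound by SREBPs, CCAAT, the box bound by NF-Y, and GGGCGG, the box bound by SP1. They are chr13:119690201-119690350 for Hmgcs1, chr10:76531438-76531587 for Lss, chr11:120824548-120824697 for Fasn (minus strand), chr3:129532205-129532354 for Elovl6 and chr5:28071213-28071362 for Insig1.
Hmgcs1: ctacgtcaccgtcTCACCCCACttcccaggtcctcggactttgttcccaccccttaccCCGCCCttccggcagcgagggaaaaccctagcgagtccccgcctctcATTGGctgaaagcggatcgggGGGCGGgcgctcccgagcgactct
Lss: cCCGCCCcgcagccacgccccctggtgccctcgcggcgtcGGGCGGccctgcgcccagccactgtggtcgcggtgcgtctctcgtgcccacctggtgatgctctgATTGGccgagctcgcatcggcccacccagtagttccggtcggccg
Fasn: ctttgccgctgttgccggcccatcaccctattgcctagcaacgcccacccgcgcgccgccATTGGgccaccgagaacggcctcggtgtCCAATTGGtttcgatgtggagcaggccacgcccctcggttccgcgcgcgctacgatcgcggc
Elovl6: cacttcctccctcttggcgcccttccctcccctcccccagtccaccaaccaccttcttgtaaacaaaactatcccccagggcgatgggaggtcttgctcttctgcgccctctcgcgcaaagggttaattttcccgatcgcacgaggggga
Insig1: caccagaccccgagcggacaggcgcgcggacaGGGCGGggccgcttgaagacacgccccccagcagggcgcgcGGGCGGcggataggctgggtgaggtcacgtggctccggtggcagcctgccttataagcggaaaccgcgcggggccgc
Hmgcs1 holds all 3 motifs in this stretch, Lss holds CCAAT and GGGCGG, Fasn holds CCAAT, Insig1 holds GGGCGG, and Elovl6 holds none of them. In Fasn, 2 CCAAT matches on opposite strands overlap. Of the 32 genes, 25 had an entry in the promoter table. In the 250 bases before the RefSeq start, TCACNCCAC was found in 1 of 25 (4.0%), against 1.22% of 27025 genes. CCAAT was found in 19 of 25 (76.0%), against 37.49%, and GGGCGG in 21 of 25 (84.0%), against 35.36%. The 27025 genes were not limited to genes expressed in these cells, as the 25 were, so the sets differ in more than pathway. A match is a description of letters and not a site, and no match says only that these letters are not in this window.

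Neighbouring pathways, in lists chosen by name with earlier results of these data known, were counted in the same comparisons. Over all tested genes, 20.2% rose and 23.2% fell with TGFβ in WT, and 15.1% and 15.8% in KO. Between genotypes 29.2% of all tested genes were higher and 27.7% lower in KO under SB505124, and 32.7% and 30.2% under TGFβ. Of 16 tested genes of other sterol synthesis, uptake and storage steps, 2 rose and 6 fell with TGFβ in WT, and 3 rose and 3 fell in KO. Between genotypes 6 were higher and 8 lower in KO under SB505124 (median log2 -0.20), and 8 and 6 under TGFβ (0.13). The genes named next were higher in KO, and none of the 8 lower genes is named. Soat2, a cholesterol esterifying enzyme gene, had 42.6 and 48.1 in WT and 240.1 and 295 in KO under SB505124 (2.53, limma adjusted p = 3.76e-10). Lipa, the lysosomal acid lipase gene, had 2484 and 2468, then 4812 and 4454 in KO (0.90, limma adjusted p = 1.43e-08). Of 14 genes of SREBP processing and degradation, 1 rose and 6 fell with TGFβ in WT and 1 and 3 in KO. In KO, 3 of them were higher and 3 lower under SB505124, and 5 and 2 under TGFβ. Fbxw7, which marks nuclear SREBPs for degradation, rose in WT from 436 and 408 to 768 and 777. It was at 359 to 431 in all 4 KO-labelled libraries, and the difference of responses passed (-0.89, limma adjusted p = 0.00222).

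Of 12 genes of the non-sterol branches of mevalonate, 1 rose and 2 fell with TGFβ in each genotype, and 2 were higher and 6 lower in KO under SB505124. Of 6 tested genes of sterol efflux, 2 rose with TGFβ in each genotype. In KO, 2 of them were higher and 3 lower under SB505124, and 2 and 1 under TGFβ. Of 30 other genes of fatty acid, triglyceride and lipid synthesis, 10 rose and 7 fell with TGFβ in each genotype. Mid1ip1, which activates acetyl-CoA carboxylase, went from 5274 and 5700 to 2105 and 1975 in WT (-1.43, limma adjusted p = 7.01e-11) and from 7275 and 8013 to 3126 and 3140 in KO. Me1, the malic enzyme gene that supplies NADPH, had 5023 and 5636 in WT and 13813 and 12904 in KO under SB505124 (1.33, limma adjusted p = 3.67e-10). Between genotypes 10 of the 30 were higher and 9 lower under SB505124. Of 16 tested genes of fatty acid oxidation, the reverse pathway, 12 were higher in KO and 2 lower under SB505124, and 13 and 2 under TGFβ. Cpt1a, the carnitine palmitoyltransferase gene, had 2222 and 2203 in WT and 3972 and 3941 in KO under SB505124 (0.84, limma adjusted p = 1.81e-08).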

How the data were processed

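RNA from 8 NMuMG libraries was sequenced after TruSeq RNA v2 preparation, which does not mark the strand, per the labels' protocols. Each deposited value is a signal, namely a gene's read count in a library divided by that library's size factor. The tools named, per the submitters' processing notes, were HTSeq 0.6.1p1, DESeq2 3.4 and FastQC 0.11.5, with build mm10, and the aligner is not given in the sources used here. Values were whole multiples of 1 step in every library (100% within a tolerance of 0.01 reads), which gave back the reads and the size factors, 0.875 to 1.16.

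Genes with a mean of at least 10 were tested. With limma 3.58.1 (R 4.3.3, variance trend), 4 group means were estimated from log2(value + 1) in all 8 libraries, so fold changes of genes with few reads are understated. P-values were adjusted by Benjamini-Hochberg over the 12498 genes in each contrast and called at 0.05. Residual degrees of freedom were 4 and the prior added 14.3. Alternatives included edgeR 4.0.16 and DESeq2 1.42.0 on recovered reads, other pseudocounts, filters and scalings, and each library left out. Replicates of a group differed by more than counting error (chi-square per degree of freedom 6.02 to 15.3), and the procedure was tested on simulated data. All 32 genes were named whatever their values, and from each neighbouring list up to 3 genes per comparison with the smallest p could be named. The members and lists were chosen with earlier results of these data known. Coordinates are those of GENCODE M21 (GRCm38, the same build as mm10). Promoter entries were matched by symbol for 25 of 32 genes. Not every gene of the neighbouring lists is reported here.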

Additional observations from a re-analysis of the deposited data

How the results depend on the processing

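Of 160 results for single genes (32 genes in 5 comparisons), 87 passed the threshold. Of these, 60 kept it under every alternative run and 27 lost it under at least 1. Of the 73 that did not pass, 25 passed under at least 1 alternative, and 29 changed sign under at least 1. With the GC and length correction, added after seeing the data, Pmvk in the WT response turned to -0.0273 and Acaca between genotypes under TGFβ to -0.0250. For the KO response, the count of 13 genes was 7 with no variance trend, and 8 to 15 with 1 library left out. With the GC and length correction the split was 14 lower and 3 higher in place of 9 and 4, so 17.6% of the calls were higher in place of 30.8%. For the difference of responses, the count of 0 was 2 with the GC and length correction and 0 to 5 with 1 library left out. Over all genes, that count of 352 was 134 with no filter on low values, 47 with no variance trend, 635 with the GC and length correction (61.3% of them higher) and 141 to 1027 with 1 library left out. The cause was not tested.

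With 1 library left out, the counts over the 32 genes were 14 to 18 for the WT response (17 with all libraries), 22 to 30 for KO against WT under SB505124 (28) and 21 to 31 under TGFβ (29). Over all genes they were 3684 to 5565, 2320 to 4410 for the KO response, 5714 to 7477 and 6421 to 7938. A group left with 1 library was assumed to vary like the others. edgeR called 18, 13, 0, 26 and 29 of the 32 genes and 5552, 4023, 418, 7233 and 7926 of all genes, in the order WT response, KO response, difference, KO against WT under SB505124 and under TGFβ. DESeq2 called 17, 13, 0, 28 and 27 of the 32. Trimmed-mean scaling moved the median of all genes by at most 0.03 in any contrast.

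Replicates share numbers across groups. Deviations of same-numbered libraries correlated between -0.20 and 0.20, so the numbers were not taken to pair the samples. With the replicate number as a block, the counts over the 32 genes were 17, 13, 0, 28 and 29, in the same order, and over all genes 5359, 3658, 252, 7103 and 7835. Under the replicate block Srebf2 between genotypes under SB505124 lost its call (adjusted p = 0.0672) and Scd2 gained one (0.0229), so the count stayed at 28. Depth limits Acss2 most, the least abundant of the 32 genes, at 60.7 to 110 normalised counts per library.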
